A study of Mus musculus with 24 samples.

Results

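Genes of the Bcl2 family that keep cells alive or commit them to apoptosis were followed in 8 groups of myeloid cells sorted from the mouse colon and from colon tumours. The members were the rows of the deposited expression table whose Ensembl identifier, without its version, mapped to Bcl2, Bcl2l1, Mcl1, Bcl2a1b, Bcl2a1d, Bax, Bak1, Bcl2l11, Pmaip1 or Bbc3. All 10 were present among the 17301 rows, and all 10 were among the 12878 genes tested, which had a mean of at least 1 RPKM in at least 1 group. RPKM is the number of reads per kilobase of gene model, scaled to the library size, so it can be compared between genes. Bcl2 passed this limit only through tumour MHCIIhi macrophages, with a mean of 1.36 RPKM there.

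The family acts at the outer membrane of the mitochondrion. Survival proteins (BCL2, BCL-XL from Bcl2l1, MCL1, and A1 from the Bcl2a1 copies) hold the effectors BAX and BAK in check, and BH3-only proteins (BIM from Bcl2l11, NOXA from Pmaip1, PUMA from Bbc3) bind the survival proteins or activate the effectors, which then open the membrane. Neutrophils are short-lived cells that are known for carrying little BCL2 and for depending on MCL1 and A1.

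Lamina propria (LP) cells came from C57BL/6J mice, and tumour cells from colon adenomas, sped up by DSS, of Apc Min/+ mice, in which every cell has 1 mutant copy of Apc. The 4 populations of each tissue were F4/80hi MHCIIhi macrophages, F4/80hi MHCIIlow macrophages, Ly6Chi MHCII- monocytes and Ly6Ghi F4/80- neutrophils, with 3 libraries each, so 24 in all. Each library was made from a pool of 13 to 15 mice, which by the methods were 6 to 8 weeks old when dextran sodium sulphate (DSS) was given and were analysed 4 weeks later. The methods describe DSS for both strains, at different concentrations, whereas the sample labels call the LP healthy. Tissue, strain and the way the tissue was digested changed together and cannot be told apart. Libraries are named below by the donor number of their labels. Since the tissue of each library was pooled, a number shared by populations of a tissue was read as the same pool of mice, which the labels do not say outright.

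Reads on the deposited genes numbered 12838061 to 41718078 per library, with a median of 26389148. The summed level of 8 neutrophil markers was 11614 to 30646 RPKM in the 6 neutrophil libraries and 23.4 to 301 RPKM in the other 18, and Ly6g was at or under 3 reads in every library of LP and tumour MHCIIhi macrophages. Neutrophil libraries also held more of an eosinophil list of which 3 of 5 genes were in the table (20.6 to 42.2 RPKM against at most 5.97 RPKM), and LP neutrophils held 359 to 1300 RPKM of 7 B and plasma cell markers; their part in the results was not tested.

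The level given to neutrophils depended on how the libraries were scaled. The library size behind the deposited values was 0.466 to 0.682 of the summed reads in neutrophils and 0.981 to 1.51 of them in the other groups. Neutrophil levels are therefore higher, relative to other cells, under the deposited scaling than under summed reads. Under the deposited scaling the median of all genes tested, as a log2 difference between neutrophils and another population of the same tissue, lay between -0.47 and -0.19. Under summed reads it lay between -2.02 and -1.04. Values under summed reads are thus given beside many of the differences between neutrophils and other cells, and shares within a library, which do not depend on scaling, are given after the genes.

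Bcl2l1 (ENSMUSG00000007659, chr2:152780668-152831728, minus strand, GRCm38), which encodes the survival protein BCL-XL, had the largest difference of any member between neutrophils and monocytes in both tissues. Libraries III, IV and V of LP neutrophils held 601, 487 and 456 RPKM, and tumour neutrophil libraries I, II and V held 458, 360 and 359 RPKM. The 18 libraries of the other groups held 9.58 to 50.6 RPKM, so the neutrophil libraries lay apart from all of them. The log2 difference from monocytes was 4.97 ± 0.24 in LP (SE, n = 3 against 3; limma, adjusted p = 3.24e-12) and 4.98 ± 0.24 in tumours (adjusted p = 2.07e-12), or 31.3- and 31.5-fold. Against the MHCIIhi macrophages it was 4.05 ± 0.24 in LP and 3.87 ± 0.24 in tumours, and against the MHCIIlow macrophages 3.52 ± 0.24 and 3.94 ± 0.24. Under summed reads these 6 differences were 2.40 to 4.14 and all passed the test. Below neutrophils, LP MHCIIlow macrophages held 41.4 to 50.6 RPKM and LP MHCIIhi macrophages 27.5 to 33.5 RPKM, a difference that did not pass the test (0.53 ± 0.24, adjusted p = 0.199; 0.78, adjusted p = 0.0485, under summed reads), and monocytes of both tissues were lowest (9.58 to 19.9 RPKM). In these bulk libraries a smaller number of expressing cells and less RNA per cell cannot be told apart.

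**Figure D1:**
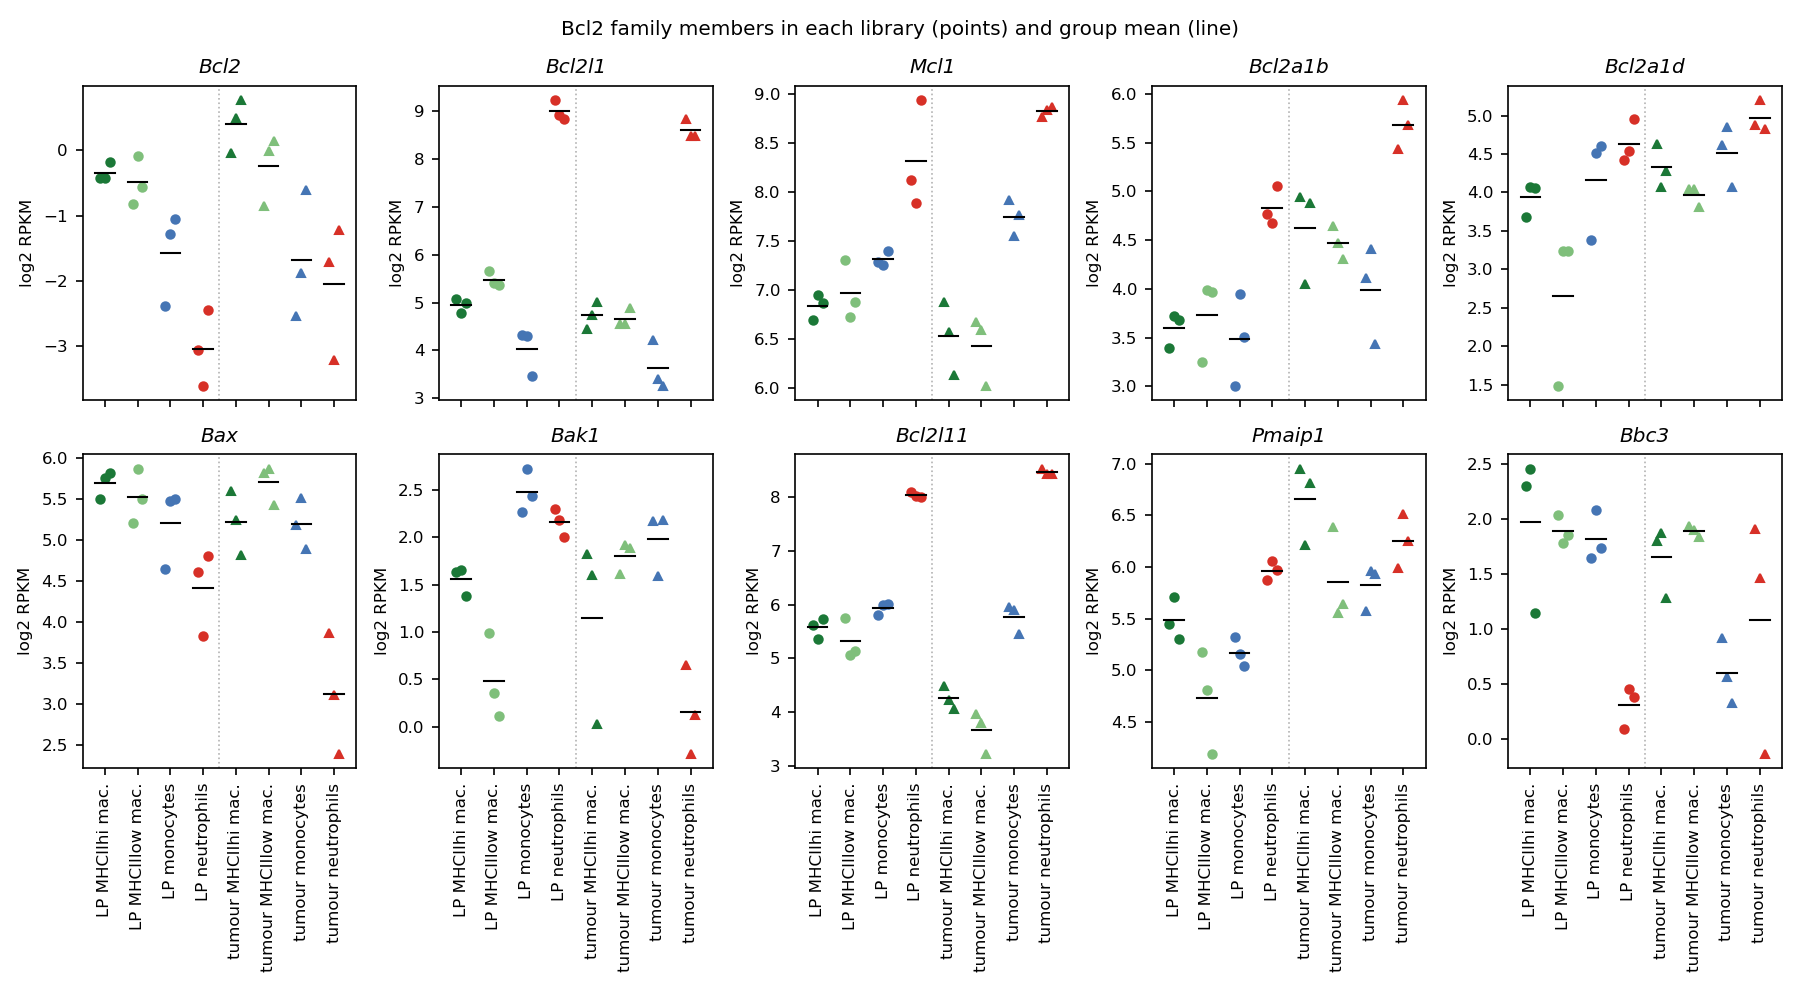
Level of each member (log2 RPKM, y axis, a separate scale per gene) in the 24 libraries by group (x axis), with circles for LP, triangles for tumour and a line at the group mean. Neutrophils (red) stand apart for Bcl2l1, at 359 to 601 RPKM, and for Bcl2l11, at 253 to 367 RPKM.

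Mcl1 (ENSMUSG00000038612, chr3:95658788-95663176, plus strand), which encodes a short-lived survival protein, was abundant in every group. In LP neutrophils, libraries III, IV and V held 278, 236 and 490 RPKM, and tumour neutrophil libraries I, II and V held 435, 457 and 468 RPKM. Tumour monocytes came next with 187 to 242 RPKM, followed by LP monocytes with 152 to 168 RPKM, LP macrophages with 104 to 159 RPKM and tumour macrophages with 65.0 to 118 RPKM. LP neutrophils and tumour monocytes overlapped, and tumour neutrophils lay above every library of the other populations. Under the deposited scaling Mcl1 was higher in neutrophils in all 6 comparisons, with log2 differences of 1.00 to 1.48 in LP and 1.08 to 2.40 in tumours (adjusted p at most 0.00121), but under summed reads the difference from tumour monocytes was -0.053, and against LP monocytes and LP MHCIIlow macrophages it was 0.18 and 0.28, none of the 3 past the test, and quantile normalization turned these same 3 comparisons to -0.19, -0.044 and -0.082 and ended the call against LP MHCIIhi macrophages (0.26, adjusted p = 0.244). Under summed reads Mcl1 was still higher in tumour neutrophils than in tumour MHCIIhi and MHCIIlow macrophages, by 0.89 and 0.85 (adjusted p = 0.000519 and 0.000756).

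The A1 protein is encoded in the mouse by near-identical copies on chromosome 9, of which Bcl2a1b (ENSMUSG00000089929, chr9:89199209-89207827, plus strand) and Bcl2a1d (ENSMUSG00000099974, chr9:88723285-88731914, minus strand) are members, and Bcl2a1a is a further copy. The coding sequences, each of 516 bases, differed at 12 positions among the 3 copies, and Bcl2a1b and Bcl2a1d were 98.8% identical. Their first 120 coding bases are shown because 7 of the 12 differences lie there, with the differing bases in capitals (GENCODE transcripts, GRCm38).
Bcl2a1a: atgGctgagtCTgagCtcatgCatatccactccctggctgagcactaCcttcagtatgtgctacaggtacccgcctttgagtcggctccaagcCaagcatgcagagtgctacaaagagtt
Bcl2a1b: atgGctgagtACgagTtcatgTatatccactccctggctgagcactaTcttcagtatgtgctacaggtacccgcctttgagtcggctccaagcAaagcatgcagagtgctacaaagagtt
Bcl2a1d: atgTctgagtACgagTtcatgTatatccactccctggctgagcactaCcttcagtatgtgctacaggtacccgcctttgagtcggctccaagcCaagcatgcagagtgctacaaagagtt
The longest run without a difference was 217 bases. Of the 51-base stretches of Bcl2a1b and Bcl2a1d, 78.7% and 79.0% also occur in another gene, so the split of reads between the copies is uncertain. Of the exon bases of Bcl2a1b, 49.1% also overlap Gm29094 on the same strand. Whether reads on such bases were left uncounted was not tested, so the level of A1 beside other members is uncertain too.

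The stretches before the annotated starts of these copies are also alike, and are shown because each holds the run GAGGAAGT (in capitals), a sequence of the type bound by ETS factors such as PU.1 (RefSeq promoters, GRCm38.p6, cut before the GENCODE start).
Bcl2a1b, chr9:89199023-89199208, plus strand: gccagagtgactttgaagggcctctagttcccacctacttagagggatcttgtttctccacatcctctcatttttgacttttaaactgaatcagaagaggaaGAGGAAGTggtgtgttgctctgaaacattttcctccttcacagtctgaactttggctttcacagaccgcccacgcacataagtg
Bcl2a1d, chr9:88731915-88732100, minus strand: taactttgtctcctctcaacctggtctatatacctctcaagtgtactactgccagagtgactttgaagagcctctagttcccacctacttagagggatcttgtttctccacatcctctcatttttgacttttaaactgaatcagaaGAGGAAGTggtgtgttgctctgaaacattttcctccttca
On either strand GAGGAAGT occurs in 1052 of 32851 promoters (3.2%), among them those of Bcl2a1b, Bcl2a1d and Bak1 but not those found for the other members. Such a match describes the letters only.

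Bcl2a1b was highest in neutrophils under the deposited scaling. The LP neutrophils of pools III, IV and V held 27.3, 25.5 and 33.2 RPKM, and tumour neutrophil libraries I, II and V held 43.2, 61.2 and 51.2 RPKM. The other groups held 8.04 to 30.7 RPKM, with tumour MHCIIhi macrophages overlapping the LP neutrophils. The log2 differences of neutrophils from the other populations were 1.10 to 1.34 in LP and 1.06 to 1.69 in tumours, and all 6 passed the test (adjusted p at most 0.0024). None passed under summed reads, where the differences from tumour MHCIIhi and MHCIIlow macrophages turned to -0.35 and -0.33. Bcl2a1d differed less: only the comparisons with MHCIIlow macrophages passed (1.98 ± 0.37 in LP, adjusted p = 0.000104, and 0.91 under summed reads; 1.00 ± 0.37 in tumours, adjusted p = 0.0215, and -0.55 under summed reads). The call in tumours was lost without MHCIIlow macrophage library VII (adjusted p = 0.0631) or without neutrophil library II (adjusted p = 0.0715). With replicate pools as a fixed block, Bcl2a1d also passed against LP MHCIIhi macrophages (0.70, adjusted p = 0.00637), as it did with median centring or only the libraries compared.

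Because reads of the A1 copies cannot be assigned with certainty, their RPKM were also summed over Bcl2a1a, Bcl2a1b and Bcl2a1d. Summing would not restore any reads left uncounted. The sum was 73.1 to 102 RPKM in LP neutrophils and 106 to 143 RPKM in tumour neutrophils, against 14.7 to 50.5 RPKM in other LP cells and 38.7 to 83.0 RPKM in other tumour cells. Neutrophils thus lay above the other populations of their own tissue. On summed reads the tumour neutrophils (49.7 to 66.8 RPKM) lay below the tumour MHCIIlow macrophages (76.9 to 81.1 RPKM), the reverse order, and the LP neutrophils (49.9 to 66.1 RPKM) overlapped the LP MHCIIhi macrophages and monocytes.

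Bcl2 (ENSMUSG00000057329, chr1:106538178-106714274, minus strand), the founding survival gene of the family, was the scarcest survival member everywhere. Libraries III, IV and V of LP neutrophils held 0.120, 0.0822 and 0.184 RPKM, on 10 to 36 reads, and tumour neutrophil libraries I, II and V held 0.307, 0.108 and 0.428 RPKM, on 8 to 35 reads. Macrophages held 0.556 to 1.70 RPKM and monocytes 0.172 to 0.659 RPKM. Bcl2 was lower in LP neutrophils than in LP MHCIIhi (log2 difference -2.69 ± 0.64, adjusted p = 0.00112) and MHCIIlow macrophages (-2.55 ± 0.64, adjusted p = 0.00173), and under summed reads these differences were -3.51 and -3.61. Tumour MHCIIhi macrophages, at 0.977 to 1.70 RPKM, are the group through which Bcl2 passed the filter, so the difference from them (-2.45; -3.86 under summed reads) is given as a description with no test. The difference from tumour MHCIIlow macrophages (-1.81 ± 0.64, adjusted p = 0.0168) did not hold with replicate pools as a fixed block (-1.28, adjusted p = 0.113). It was also lost without MHCIIlow macrophage library V (adjusted p = 0.0506) or VII (0.0597) or neutrophil library II (0.105). Quantile normalization (-0.77, adjusted p = 0.297), median centring (-1.17, adjusted p = 0.111) or fitting only the libraries compared (adjusted p = 0.0679) ended the call too. The difference was -3.35 under summed reads. Against monocytes it did not pass in LP (-1.46, adjusted p = 0.0587) or in tumours (-0.37, adjusted p = 0.646) under the deposited scaling, but did in both under summed reads (-2.29 and -1.5, adjusted p = 0.00498 and 0.0483).

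Bax (ENSMUSG00000003873, chr7:45461697-45466898, minus strand), which encodes an effector that perforates the mitochondrial membrane, was lowest in neutrophils. In LP neutrophils, libraries III, IV and V held 24.5, 14.2 and 27.9 RPKM, and tumour neutrophil libraries I, II and V held 14.6, 8.63 and 5.26 RPKM. The other groups held 25.0 to 58.6 RPKM. Only the lowest LP monocyte library (25.0 RPKM) fell within the range of LP neutrophils. The log2 differences were -1.28 ± 0.33 and -1.11 ± 0.33 from LP MHCIIhi and MHCIIlow macrophages (adjusted p = 0.00208 and 0.00564), and -2.58 to -2.07 in tumours (adjusted p at most 1.88e-05). The difference from LP monocytes (-0.79 ± 0.33, adjusted p = 0.0468) lost its call without monocyte library IV (adjusted p = 0.146) or V (0.16) or neutrophil library III (0.0543) or IV (0.242), and with libraries centred on their median (0.189), no filter (0.0549) or only the libraries compared (0.106). Under summed reads all 6 differences were larger, at -4.12 to -1.62. Of the exon bases of Bax, 12.2% overlap Gm45808 on the same strand, so reads there cannot be assigned with certainty.

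Bak1 (ENSMUSG00000057789, chr17:27019810-27029009, minus strand), the other effector, was a gene of low level whose place depended on the tissue. The LP neutrophils of pools III, IV and V held 4.91, 4.55 and 4.01 RPKM, and tumour neutrophil libraries I, II and V held 1.57, 0.820 and 1.09 RPKM. In LP these overlapped the monocytes (4.83 to 6.62 RPKM) and lay above the MHCIIhi (2.60 to 3.15 RPKM) and MHCIIlow macrophages (1.08 to 1.99 RPKM), and in tumours they were below the monocytes (3.02 to 4.54 RPKM) and MHCIIlow macrophages (3.05 to 3.79 RPKM). The difference from LP MHCIIhi macrophages passed only with median centring or only the libraries compared. On summed reads those libraries overlapped (2.59 to 3.10 RPKM in neutrophils against 2.95 to 3.65 RPKM). LP neutrophils exceeded LP MHCIIlow macrophages by 1.67 ± 0.38 (adjusted p = 0.000648; 0.61, not past the test, under summed reads), and the difference from LP monocytes passed only under summed reads (-1.14, adjusted p = 0.00879). Tumour neutrophils were lower than tumour monocytes (-1.82 ± 0.38, adjusted p = 0.000339) and tumour MHCIIlow macrophages (-1.65 ± 0.38, adjusted p = 0.000662), by -2.96 and -3.19 under summed reads. The difference from tumour MHCIIhi macrophages (-0.99 ± 0.38, adjusted p = 0.0245) was lost without macrophage library I (adjusted p = 0.151) or V (0.113) or neutrophil library II (0.107) or V (0.0521). It was also lost with quantile normalization (-0.26, adjusted p = 0.566), median centring (-0.39, adjusted p = 0.368), voom (adjusted p = 0.133) or only the libraries compared (adjusted p = 0.196), and was -2.40 under summed reads. Of the exon bases of Bak1, 25.5% overlap Ggnbp1 on the opposite strand, and the library kit does not keep the strand, so reads there cannot be assigned to either gene.

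Bcl2l11 (ENSMUSG00000027381, chr2:128126038-128162547, plus strand), which encodes the BH3-only protein BIM, was the other gene that set neutrophils apart. Libraries III, IV and V of LP neutrophils held 271, 259 and 253 RPKM, and tumour neutrophil libraries I, II and V held 367, 340 and 344 RPKM. The libraries of the other groups held 9.39 to 64.5 RPKM, so none came near. The log2 differences were 2.09 ± 0.19 from monocytes (adjusted p = 1.99e-08), 2.45 ± 0.19 from MHCIIhi macrophages (1.21e-09) and 2.71 ± 0.19 from MHCIIlow macrophages (2.36e-10) in LP. In tumours they were 2.69 ± 0.19 (adjusted p = 4.67e-10), 4.19 ± 0.19 (2.52e-13) and 4.78 ± 0.19 (4.28e-14), or 6.43-, 18.2- and 27.5-fold. Under summed reads the 6 differences were 1.27 to 3.24 and all passed.

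Pmaip1 (ENSMUSG00000024521, chromosome 18), which encodes NOXA, a BH3-only protein that binds MCL1 and A1, had no such order. In LP neutrophils, libraries III, IV and V held 58.6, 66.5 and 62.7 RPKM, and tumour neutrophil libraries I, II and V held 63.7, 91.1 and 76.3 RPKM, but tumour MHCIIhi macrophages reached 74.2 to 124 RPKM. In LP it was higher in neutrophils than in monocytes (0.79 ± 0.24, adjusted p = 0.00935; -0.031 under summed reads) and MHCIIlow macrophages (1.24 ± 0.24, adjusted p = 0.00018; 0.17, not past the test, under summed reads). In tumours no comparison passed under the deposited scaling (-0.41 to 0.43, adjusted p of 0.14 to 0.155), whereas under summed reads neutrophils were lower than all 3 other populations (-1.82 to -0.71), and with libraries centred on their median they were higher than monocytes and MHCIIlow macrophages (0.87 and 1.03, adjusted p = 0.0058 and 0.00127). Its direction in tumours therefore cannot be given. LP neutrophils also lay above the LP MHCIIhi macrophages (39.5 to 52.4 RPKM), a difference that passed only with median centring or only the libraries compared. On summed reads those libraries overlapped (37.0 to 45.4 RPKM in neutrophils against 44.8 to 60.1 RPKM).

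Bbc3 (ENSMUSG00000002083, chr7:16308393-16318205, plus strand), which encodes PUMA, was low in all groups, at 0.913 to 5.49 RPKM. The LP neutrophils of pools III, IV and V held 1.07, 1.38 and 1.30 RPKM, on 37 to 56 reads, below every other LP library (2.21 to 5.49 RPKM). The log2 differences from the other LP populations were -1.66 to -1.51 (adjusted p at most 0.00387), and -2.65 to -2.33 under summed reads. Tumour neutrophil libraries I, II and V were spread over 3.76, 2.76 and 0.913 RPKM, and no comparison of tumour neutrophils passed under the deposited scaling (adjusted p of 0.0811 to 0.335). Under summed reads Bbc3 was lower than in tumour MHCIIhi (-1.98, adjusted p = 0.000151) and MHCIIlow macrophages (-2.36, adjusted p = 2.04e-05). Without library V, Bbc3 passed as higher than in tumour monocytes (adjusted p = 0.0113). Without library I it passed as lower than in MHCIIlow (adjusted p = 0.0135) and MHCIIhi macrophages (0.0422).

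**Figure D2:**
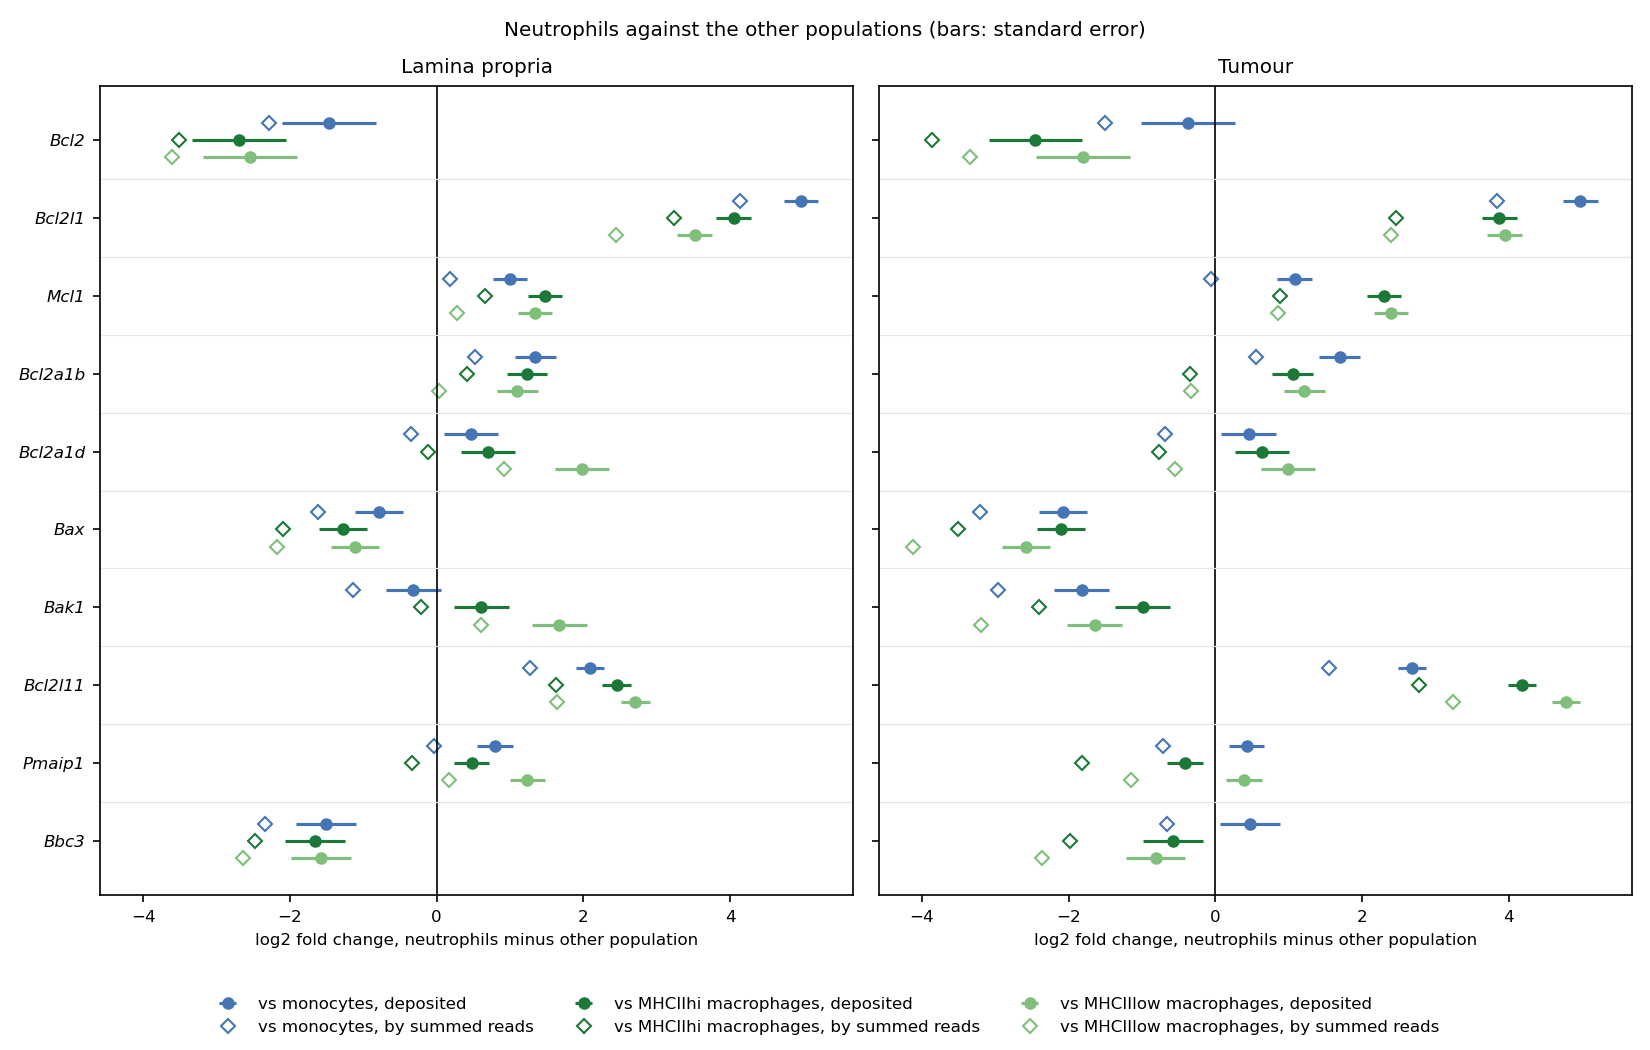
Log2 fold change of neutrophils over each other population (x axis) for the 10 members (y axis) in LP (left) and tumours (right), with filled points and standard errors for the deposited scaling and open diamonds for scaling by summed reads. Bcl2l1 and Bcl2l11 lie above 0 and Bax below 0 under both scalings, whereas Mcl1, Bcl2a1b, Bcl2a1d, Bak1, Pmaip1 and Bbc3 cross 0 in some comparisons.

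Counted over the members, neutrophils were higher for 5 and lower for 2 of the 10 than monocytes in LP, where 24.1% of all genes tested were called higher and 30.4% lower. They were higher for 4 and lower for 3 than LP MHCIIhi macrophages (28.2% and 34.1% of all genes), and higher for 7 and lower for 3 than LP MHCIIlow macrophages (29.6% and 33.8%). In tumours, neutrophils were higher for 4 and lower for 2 than monocytes (23.3% and 34.9% of all genes), and higher for 5 and lower for 3 than MHCIIlow macrophages (28.6% and 41.1%). Against tumour MHCIIhi macrophages they were higher for 4 and lower for 3 (28.3% and 40.7%), namely Bax, Bak1 and Bcl2. The call of Bcl2 there is not read as a test, because Bcl2 passed the filter only through that group. The median log2 difference of the members from monocytes, MHCIIhi and MHCIIlow macrophages was 0.63, 0.65 and 1.29 in LP and 0.46, 0.11 and 0.69 in tumours, beside -0.24, -0.23 and -0.19 and -0.36, -0.46 and -0.47 for all genes. Under summed reads 2 to 3 members were higher and 3 to 5 lower in each comparison, where, in the order of these medians, 13.1%, 16.9%, 16.3%, 10.4%, 14.1% and 13.2% of all genes were higher and 48.3%, 49.3%, 53.4%, 57.1%, 62.2% and 63.8% lower. Bcl2l1 and Bcl2l11 were among those higher in each of the 6 comparisons under both scalings.

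Within a library the makeup of the 10 members does not depend on scaling. Bcl2l1 took 33.6 to 46.7% of the summed RPKM of the members in the neutrophils of LP and 26.5 to 32.3% in those of tumours, against 2.42 to 14.3% in the other 18 libraries. Bcl2l11 took 18.6 to 25.9% in neutrophils and 3.93 to 17.6% elsewhere. Bax took 0.394 to 2.05% in neutrophils and 7.51 to 20.4% elsewhere. As shares, Bcl2l1, Bcl2l11 and Bax thus lay apart in neutrophils from all other libraries. For Mcl1 the neutrophil shares (21.1 to 36.0%) lay within the range of the others (22.4 to 54.9%) or just below it. A share also falls when other members rise, so it does not give the level of a gene. Mean Bax was 1.74% in LP neutrophils and 10.7% in LP monocytes, but 22.2 and 38.2 RPKM. Mcl1 had a lower mean share in LP neutrophils than in LP monocytes (26.2 against 45.3%) but a higher mean RPKM (335 against 159).

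The ratio of survival genes to one another changed accordingly. Bcl2l1 RPKM was 0.767 to 2.16 times Mcl1 RPKM in neutrophils, 0.0441 to 0.130 times in monocytes and 0.186 to 0.456 times in macrophages. It was 16.3 to 68.3 times Bax RPKM in neutrophils and 0.232 to 1.36 times elsewhere. Set against its BH3-only partner, Bcl2l11 RPKM was 0.451 to 0.555 times Bcl2l1 RPKM in LP neutrophils and 0.801 to 0.957 times in tumour neutrophils, without overlap. In monocytes the same ratio was 2.80 to 5.83. These are descriptions with 3 libraries a group, in which an exact two-sided permutation test could not give a p below 0.1.

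**Figure D3:**
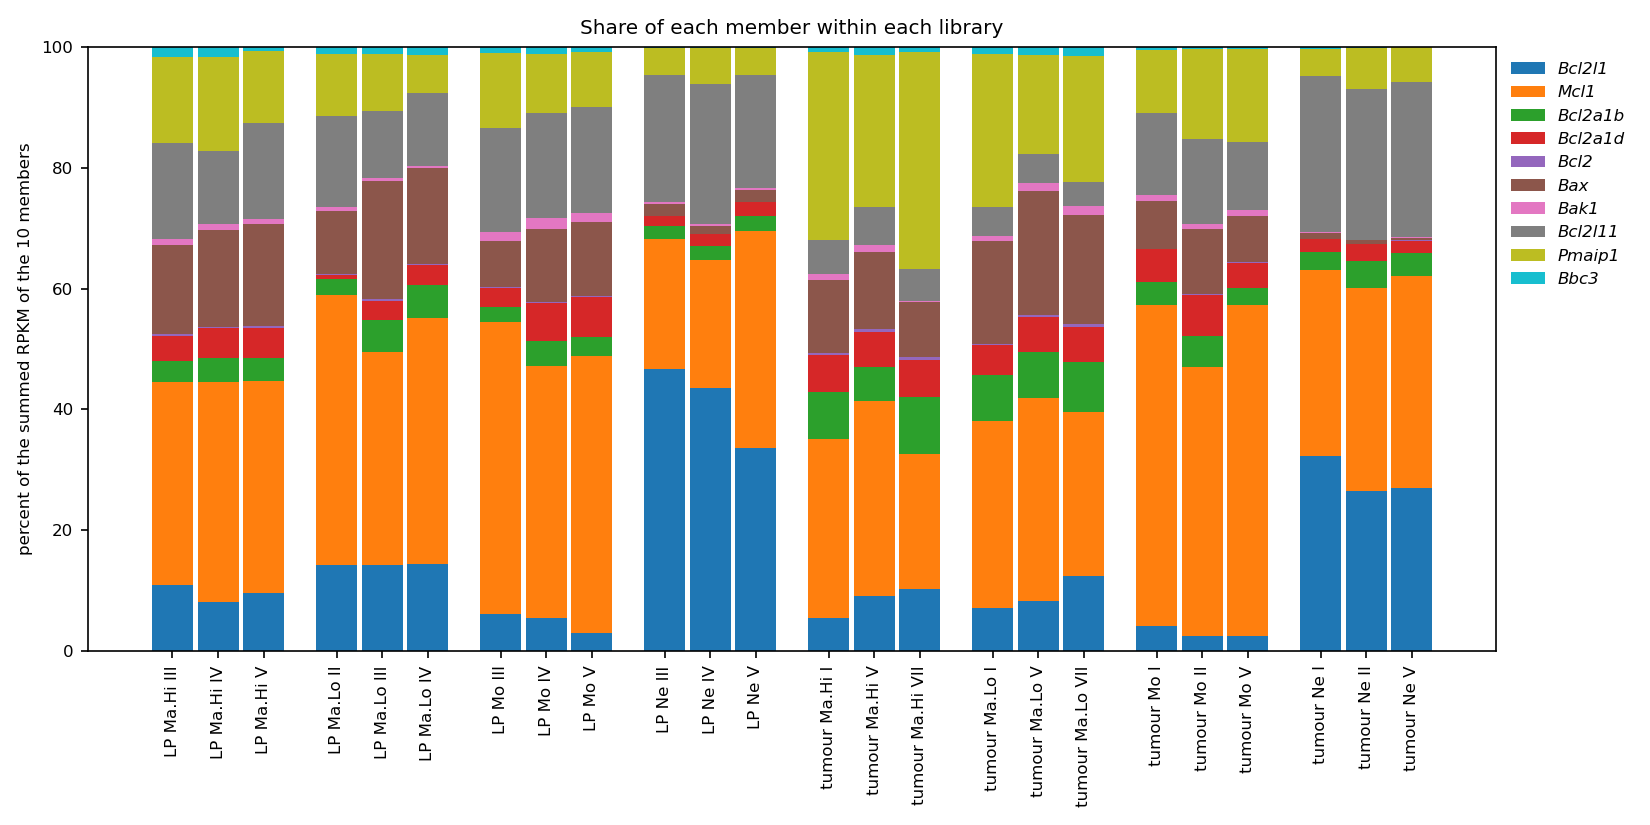
Percent of the summed RPKM of the 10 members taken by each member (y axis, stacked to 100) in each of the 24 libraries (x axis; Ma.Hi and Ma.Lo are MHCIIhi and MHCIIlow macrophages, Mo monocytes, Ne neutrophils, with the pool number). Neutrophil libraries have the widest Bcl2l1 band, 26.5 to 46.7%, and a thin Bax band, 0.394 to 2.05%.

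Tumour and LP cells of the same population were compared next. In neutrophils 3 of 10 members passed, Bak1 and Bax lower and Bcl2a1b higher in tumours, where 19.0% of all genes were called lower and 13.1% higher. Bak1, at 4.01 to 4.91 RPKM in LP and 0.820 to 1.57 RPKM in tumours without overlap (21.8% of all genes lay apart in this direction), differed by -2.00 ± 0.38 (adjusted p = 0.000426; -2.47 under summed reads), on 16 to 47 reads in tumour libraries. Bax differed by -1.29 ± 0.33 (adjusted p = 0.00486; -1.76 under summed reads), although tumour library I (14.6 RPKM) exceeded LP library IV (14.2 RPKM), and it did not pass with voom on the reads (adjusted p = 0.123) or when only the libraries compared were fitted (0.113). Bcl2a1b differed by 0.85 ± 0.28 (adjusted p = 0.0247), a call lost under summed reads (0.38, adjusted p = 0.293) and without LP library III (adjusted p = 0.0643) or IV (0.0755) or tumour library II (0.0927) or V (0.052). The Bcl2a1b call was also lost with quantile normalization, array weights or voom on the reads. Every tumour library held more Bcl2l11 than every LP library (18.3% of all genes lay apart in this direction), yet the gene did not pass (0.42 ± 0.19, adjusted p = 0.0984; -0.045 under summed reads) unless libraries were centred on their median (adjusted p = 0.0126) or only the libraries compared were fitted (0.0154). Bcl2l1 did not pass (-0.39 ± 0.24, adjusted p = 0.221) except under summed reads (-0.86, adjusted p = 0.00725). Mcl1 (0.51, adjusted p = 0.102) passed only without LP library V (adjusted p = 0.00752) or with libraries centred on their median (adjusted p = 0.0145), and Bbc3 (0.77, adjusted p = 0.161) only without tumour library V (0.00478).

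Markers of other cells in the neutrophil libraries differed between the tissues. The 7 B and plasma cell markers reached 359 to 1300 RPKM together in LP neutrophils but 0.677 to 20.1 RPKM in those of tumours, with 7 and 2 of them over 3 reads in every library and Mzb1 at or under 3 reads in all tumour neutrophil libraries. The 6 epithelial markers summed to 16.0 to 69.7 RPKM in LP and 164 to 337 RPKM in tumour neutrophils, with all 6 over 3 reads in every library of both. Their part in the differences of Bak1, Bax and Bcl2a1b was not tested.

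In both macrophage subsets Bcl2l11 was lower and Pmaip1 higher in tumours than in LP. Tumour MHCIIhi macrophages held less Bcl2l11 (16.6 to 22.6 RPKM against a mean of 47.9 ± 6.05 RPKM in LP, SD, n = 3; log2 difference -1.31 ± 0.19, adjusted p = 5.18e-05) and more Pmaip1 (74.2 to 124 RPKM against 39.5 to 52.4 RPKM; 1.17 ± 0.24, adjusted p = 0.00168) and Bcl2a1b (1.03 ± 0.28, adjusted p = 0.0124). These were 2 higher and 1 lower of 10, where 8.01% of all genes were higher and 11.5% lower. The Bcl2a1b call was lost without LP library III (adjusted p = 0.0559) or tumour library I (0.063) or VII (0.0625).

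In MHCIIlow macrophages 3 members were higher and 2 lower in tumours, where 11.5% of all genes were higher and 11.8% lower. Bcl2l11 fell from a mean of 40.8 ± 11.3 RPKM in LP to libraries of 15.6, 14.0 and 9.39 RPKM (-1.65 ± 0.19, adjusted p = 2.77e-06), and Pmaip1 rose (1.13 ± 0.24, adjusted p = 0.00179). Bak1 rose from 1.08 to 1.99 RPKM to 3.05 to 3.79 RPKM (1.32 ± 0.38, adjusted p = 0.0138), the opposite direction to neutrophils, but not without LP library IV (adjusted p = 0.0643). Bcl2a1d was higher (1.31 ± 0.37, adjusted p = 0.0129), which rested on LP library II at 2.80 RPKM (adjusted p = 0.0983 without it). Bcl2l1 was lower (-0.82 ± 0.24, adjusted p = 0.0149), lost without LP library II (adjusted p = 0.0632) or tumour library I (0.0518) or V (0.0558). When only the libraries compared were fitted, Pmaip1 (adjusted p = 0.0763) and Bcl2a1d (0.136) did not pass. All 8 of these macrophage differences kept their sign under summed reads.

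Markers of other cells differed here too. The 6 monocyte markers summed to 125 to 453 RPKM in LP and 13.1 to 21.3 RPKM in tumour MHCIIlow macrophages, with 6 and 4 of them over 3 reads in every library. The 7 T and NK cell markers in the table summed to 140 to 147 RPKM in LP and 12.9 to 21.3 RPKM in tumour MHCIIhi macrophages, with 2 of 7 over 3 reads in every library of each and Cd3e at or under 3 reads in all LP libraries. Their part was not tested.

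In monocytes no member passed between tumour and LP with limma, where 9.29% of all genes did. At an unadjusted p under 0.05 there were 2, Pmaip1 (0.65 ± 0.24, adjusted p = 0.102) and Bbc3 (-1.21 ± 0.41, adjusted p = 0.0678), and with voom on the reads there were 0. Bbc3 held 3.13 to 4.23 RPKM in LP and 1.25 to 1.90 RPKM in tumour monocytes, without overlap (15.1% of all genes lay apart in this direction), and passed under summed reads (-1.37, adjusted p = 0.032). The difference between the tumour effects in neutrophils and monocytes passed for 1 member, Bbc3 (1.98 ± 0.58, adjusted p = 0.0347), where 9.11% of all genes passed; it was lost under summed reads (1.67, adjusted p = 0.0528) and without any 1 of 9 of the 12 libraries (adjusted p of up to 0.0811). Under summed reads Bax (-1.59, adjusted p = 0.0184) and Bak1 (-1.81, adjusted p = 0.0206) passed in its place. For the other pairs of populations, Mcl1, Bax, Bak1 and Bcl2l11 passed between neutrophils and MHCIIlow macrophages (23.6% of all genes passed), Bak1 and Bcl2l11 between neutrophils and MHCIIhi macrophages (17.5%), Bak1 and Bcl2l11 between monocytes and MHCIIlow macrophages (9.28%), Bcl2l11 between monocytes and MHCIIhi macrophages (5.76%), and 0 between the macrophage subsets (1.46%). Under summed reads Pmaip1 (-1.47, adjusted p = 0.00401) and Bax (-1.41, adjusted p = 0.0202) also passed between neutrophils and MHCIIhi macrophages. Between neutrophils and MHCIIlow macrophages Pmaip1 (-1.32, adjusted p = 0.00684) and Bcl2a1d (-1.46, adjusted p = 0.0373) also passed under that scaling, whereas Mcl1 did not (0.57, adjusted p = 0.132).

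**Figure D4:**
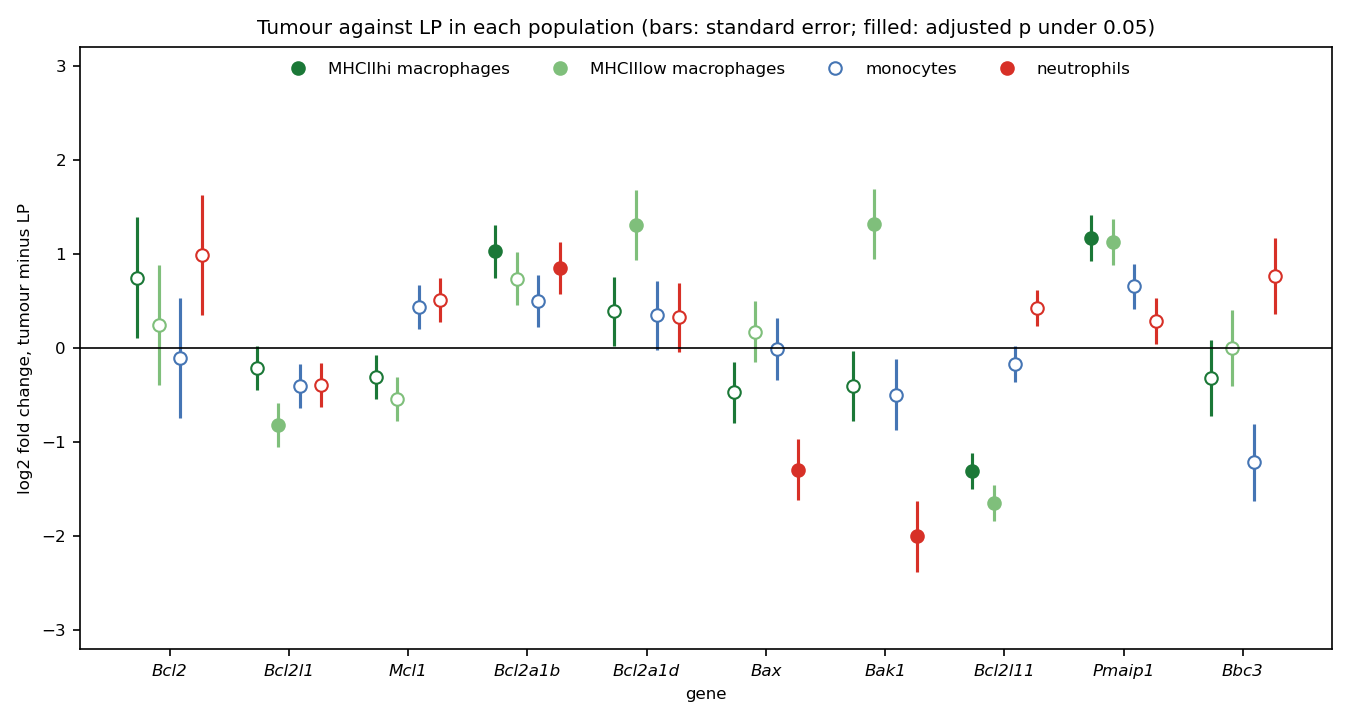
Log2 fold change of tumour over LP (y axis) with its standard error for each member (x axis) and population (colour), with filled points where the adjusted p was under 0.05. Bak1 is at -2.00 in neutrophils and 1.32 in MHCIIlow macrophages, and Bcl2l11 at -1.31 and -1.65 in the macrophages and 0.42 in neutrophils.

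Macrophages and monocytes of the same tissue differed in 4 members in LP (29.5% of all genes) and 5 in tumours (38.3%). Bcl2 was 1 of the 5, but its difference is not read as a test. Bcl2l1 was higher in macrophages in both tissues (1.18 ± 0.20, adjusted p = 0.000177 in LP; 1.07 ± 0.20, adjusted p = 0.000299 in tumours). Bcl2l11 was lower in tumour macrophages (-1.80 ± 0.17, adjusted p = 3.32e-08) and less so in LP (-0.49 ± 0.17, adjusted p = 0.0309), where the call was lost without any of 5 libraries (adjusted p of up to 0.111) and under summed reads (0.0548). Mcl1 was lower in tumour macrophages (-1.26 ± 0.20, adjusted p = 4.32e-05) and Bbc3 higher (1.17 ± 0.35, adjusted p = 0.0127), the latter not without monocyte library V (adjusted p = 0.0645). Bak1 was lower in LP macrophages (-1.46 ± 0.32, adjusted p = 0.0019). With replicate pools as a fixed block, Mcl1 also passed as lower in LP macrophages (-0.43, adjusted p = 0.0477) and Bcl2a1b as higher in tumour macrophages (0.71, adjusted p = 0.0279). Bcl2 passed the filter only through tumour MHCIIhi macrophages, so its higher level in tumour macrophages (log2 difference 1.76) is given as a description with no test. Its call was lost with replicate pools as a fixed block (1.23) and without monocyte library I or II. The lower Bcl2a1d of LP macrophages (-0.87 ± 0.32, adjusted p = 0.0471) was lost without any of 6 libraries (adjusted p of up to 0.234) and under summed reads (0.0864).

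Between the macrophage subsets, Bcl2a1d was lower in MHCIIlow than in MHCIIhi macrophages of LP (-1.28 ± 0.37, adjusted p = 0.0367), where 7.70% of all genes passed. The call was lost with replicate pools as a fixed block (-0.55, adjusted p = 0.195) and under summed reads (-1.03, adjusted p = 0.0867). It was also lost without any MHCIIhi macrophage library (adjusted p of 0.0654 to 0.121) or MHCIIlow macrophage library II (0.216). In the same fixed block Pmaip1 passed as lower in LP MHCIIlow macrophages (-1.04, adjusted p = 0.0356). In tumours no member passed with limma (1.13% of all genes did), 2 had an unadjusted p under 0.05 (Bcl2l11 and Pmaip1), and voom gave 0. With the fixed block 1 passed, Bcl2l11, lower in MHCIIlow macrophages (-0.60, adjusted p = 0.0201).

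Of 55 further genes of cell death, 49 were tested, and their calls went both ways in neutrophils. In neutrophils against monocytes 14 were higher and 20 lower in LP, and 14 were higher and 17 lower in tumours, where 24.1% and 30.4% of all genes were higher and lower in LP, and 23.3% and 34.9% in tumours. Their median log2 differences were -0.28 and -0.12. Among the 8 tested genes of death receptors and their adaptors, 4 were higher (Fas, Tnfrsf1a, Cflar, Fasl) and 2 lower in LP, and 5 higher and 1 lower in tumours. Fasl passed the filter through LP neutrophils, so its place among the 4 is not read as a test. Among 15 genes of the apoptosome and caspases 10 were lower in LP and 8 in tumours. Among 9 genes listed as inhibitors of apoptosis proteins 2 (Birc2, Birc3) were higher and 4 (Birc6, Naip2, Naip5, Naip6) lower in both tissues. Of 7 further effector and BH3-only genes 4 were higher (Bid, Bmf, Bnip3, Bnip3l) and 1 lower in LP, and 3 higher in tumours. Of the 2 other survival genes tested Bcl2a1a was higher and Bcl2l2 lower in each, and of 8 genes of p53 and regulators of the members 2 (Foxo3, Ddit3) were higher in both, with 2 lower in LP and 3 in tumours.

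The Fas receptor gene Fas, which signals death from outside the cell, held 323 to 402 RPKM in LP neutrophils and 31.7 to 39.2 RPKM in LP monocytes (3.37 ± 0.31, adjusted p = 1.8e-08), and 425 to 538 against 40.7 to 54.0 RPKM in tumours (3.39 ± 0.31, adjusted p = 1.3e-08), with 2.55 and 2.26 under summed reads. Its ligand gene Fasl held 1.16 to 2.16 RPKM in LP neutrophils and 0 reads in all LP monocyte libraries, which makes it at least 29.3-fold higher against a floor of 3 reads per library. Fasl passed the filter through LP neutrophils (mean 1.61 RPKM), so this difference is a description with no test. In tumour neutrophils Fasl held 0.258 to 1.28 RPKM against at most 2 reads in tumour monocytes. Bid, whose product links death receptors to BAX and BAK, was higher by 3.13 ± 0.31 in LP (adjusted p = 5.7e-08) and 1.45 ± 0.31 in tumours (adjusted p = 0.000485), but by 2.30 and 0.31 under summed reads. Foxo3, a transcription factor known to act on Bcl2l11, was higher by 2.95 ± 0.25 in LP (adjusted p = 5.87e-09) and by 1.06 ± 0.25 in tumours (adjusted p = 0.00105), where it turned to -0.077 under summed reads. The genes named as lower in both tissues were Bcl2l2, a survival gene on at most 26 reads in neutrophils (-3.68 ± 1.17, adjusted p = 0.0118 in LP; -4.17 ± 1.17, adjusted p = 0.0047 in tumours), the mitochondrial channel gene Vdac3 (-2.08 ± 0.17 and -1.47 ± 0.17), the executioner caspase Casp6 (-2.03 ± 0.26 and -2.95 ± 0.26) and Naip6 (-1.88 ± 0.32 and -1.76 ± 0.32). All of these lower genes were lower still under summed reads.

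Between tumour and LP neutrophils 11 of the 49 were higher and 9 lower, beside 13.1% and 19.0% of all genes. Birc3, an inhibitor of apoptosis that is a known target of NF-kappaB, rose from 180 to 211 RPKM to 485 to 613 RPKM (1.43 ± 0.18, adjusted p = 9.45e-06; 0.96 under summed reads). Aifm1 rose by 1.28 ± 0.31 (adjusted p = 0.00372). Bid fell from 37.3 to 57.8 RPKM to 9.55 to 19.7 RPKM (-1.87 ± 0.31, adjusted p = 0.000126), and the BH3-only gene Bmf differed by -1.23 ± 0.43 (adjusted p = 0.0313). None of these 4 turned direction under summed reads.

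The genes whose log2 RPKM followed a member most closely over the 24 libraries are given as a description, since all points share groups and scaling. Bcl2l11 was followed by Trib1 (Pearson r = 0.99) and Nfkb2 (0.989), Bcl2l1 by Trim12a (0.966) and Ndfip1 (0.965), Mcl1 by Fosl2 (0.966) and Slc25a3 (0.963), and Bax by Mfsd5 (0.956) and Eif3g (0.944). For Bcl2 they were Slc25a10 (0.916) and Cpq (0.893), for Bcl2a1b Pfn1 (0.912) and Sfxn5 (0.91), and for Bcl2a1d Sirpb1a (0.897) and Bcl2a1a (0.878). The coding sequences of Bcl2a1a and Bcl2a1d are 98.6% identical. The closest genes were less alike for Bbc3 (Pqlc2, 0.827, and Pdgfa, 0.786), Pmaip1 (Stk38l, 0.816, and Tmem268, 0.81) and Bak1 (Ccz1, 0.803, and Sec23ip, 0.799).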

How the data were processed

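RNA of 4 sorted populations from LP and tumours was made into 24 libraries by an adapted SMARTSeq v2 method, which keeps no strand. Per the labels and methods, the authors aligned reads to GRCm38 with STAR 2.3, counted them per GENCODE gene with featureCounts 1.5 and removed genes of low count. The deposited values are log2 RPKM made by the authors. Their steps gave back whole reads for 100% of 415224 values, to within 0.001 reads with a prior count of 0.25, and 17190 of 17301 identifiers matched GENCODE M21.

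The deposited log2 values of the 12878 genes with a mean of at least 1 RPKM in at least 1 group were fitted with limma 3.58.1 (R 4.3.3), with 8 group means, all 24 libraries, moderated variance and Benjamini-Hochberg adjustment over all genes tested, and a threshold of 0.05. Tumour effects were compared by interaction contrasts. The log2 values were also rescaled to summed reads, and voom was run on the recovered reads. The script was tested on simulated data. All sequences came from GENCODE transcripts or RefSeq promoters. Alternatives were another pseudocount and filter, quantile or median scaling, array weights, smaller fits and leaving out each library. Pools were also fitted as a fixed block and as a random block.

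Donor numbers in the labels were taken to mark the same pooled mice within a tissue, and not between tissues. Deviations of 29 same-pool pairs correlated at -0.0661 to 0.255 (median 0.0169), against a median of -0.0114 for other pairs, and the estimated within-pool correlation was 0.0476. Since each library is a pool, p-values measure the spread between pools. No 2 libraries of a group were duplicates.

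All 10 members were named. From the wider lists came the 4 genes that were most raised and the 4 most lowered in LP neutrophils against monocytes, if called in the same direction in tumours, and the 2 most raised and 2 most lowered in tumour against LP neutrophils. The 2 genes most like each member were taken among genes with a mean of at least 10 RPKM in a group. The members and lists were chosen with earlier results of these data known.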

Additional observations from a re-analysis of the deposited data

Results flagged for a closer look

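Under the deposited scaling the effect of tissue, as the log2 difference between tumour and LP, differed between populations for 11 combinations of member and population pair, of which 10 passed the interaction test of limma and 1 was not past it. Comparisons other than neutrophils against monocytes were added after seeing the data, and comparisons that share a population share its libraries.

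For Bbc3 the tumour effect was 1.98 higher in neutrophils than in monocytes (adjusted p = 0.0347; 1.67, adjusted p = 0.0528, under summed reads). Bak1 differed by -1.60 between neutrophils and MHCIIhi macrophages (adjusted p = 0.0428), by -3.32 between neutrophils and MHCIIlow macrophages (adjusted p = 0.000152) and by -1.81 between monocytes and MHCIIlow macrophages (adjusted p = 0.0363). Bcl2l11 differed by 1.73 (adjusted p = 0.000162) and 2.07 (adjusted p = 2.05e-05) between neutrophils and MHCIIhi or MHCIIlow macrophages, and by 1.14 (adjusted p = 0.0141) and 1.48 (adjusted p = 0.00135) between monocytes and the same macrophages. The 7 differences of Bak1 and Bcl2l11 also passed under summed reads.

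Between neutrophils and MHCIIlow macrophages the tumour effect also differed for Bax (-1.47, adjusted p = 0.0261; -1.94, adjusted p = 0.00197, under summed reads) and for Mcl1 (1.05, adjusted p = 0.0258; 0.57, adjusted p = 0.132, under summed reads). Between monocytes and MHCIIlow macrophages Mcl1 differed by 0.974, but the test of the difference did not pass (adjusted p = 0.0713). Mcl1 was at 187 to 242 RPKM in tumour and 152 to 168 RPKM in LP monocytes. In MHCIIlow macrophages it was at 65.0 to 102 RPKM in tumours and 105 to 159 RPKM in LP. Of all genes tested, 9.11% passed between neutrophils and monocytes, 17.5% and 23.6% between neutrophils and MHCIIhi or MHCIIlow macrophages, and 5.76% and 9.28% between monocytes and these macrophages.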

How the results depend on the processing

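Over 10 members and 15 comparisons, alternatives other than leaving out a library kept the side of the threshold, and the direction of any call, in 1608 instances. They gained a call in 50, lost one in 51 and turned the direction of a call in 11. Leaving out 1 library kept both in 951, gained a call in 17 and lost one in 52. Changes of direction without any call were not counted. The summed-read scaling and the further population pairs were chosen after seeing the data. Direction turned under quantile normalization for Mcl1 in neutrophils against LP monocytes (-0.044), LP MHCIIlow macrophages (-0.082) and tumour monocytes (-0.19), and for Pmaip1 against tumour MHCIIlow macrophages (-0.69). Under summed reads it turned for Mcl1 against tumour monocytes (-0.053), Bcl2a1b against tumour MHCIIhi (-0.35) and MHCIIlow macrophages (-0.33), Bcl2a1d against tumour MHCIIlow macrophages (-0.55), and Pmaip1 against LP monocytes (-0.031), tumour monocytes (-0.71) and tumour MHCIIlow macrophages (-1.15).

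Counts of members called moved by over 1.5 times as follows. Under summed reads they were 6 in place of 10 for neutrophils against LP MHCIIlow macrophages, 1 in place of 0 for tumour against LP monocytes, 2 in place of 4 for LP macrophages against monocytes, and 2 (Bax and Bak1) in place of 1 (Bbc3) for the difference of tumour effects between neutrophils and monocytes. For tumour against LP neutrophils, median centring gave 5 and voom 1 in place of 3. Tumour against LP monocytes gave 1 with log2(RPKM + 1) or array weights. LP MHCIIlow against MHCIIhi macrophages gave 2 with log2(RPKM + 1), a mean of at least 5 RPKM or quantile normalization, 3 with array weights and 0 when only the libraries compared were fitted, in place of 1. The last fit gave 3 in place of 5 for tumour against LP MHCIIlow macrophages. A mean of at least 5 RPKM, which leaves 8 members, gave 3 in place of 5 for tumour macrophages against monocytes. The difference of tumour effects gave 0 with voom, quantile normalization, the higher filter or only the libraries compared. Except for the smaller number of members or libraries, the cause was not tested.

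Leaving out 1 library gave 6 to 8 calls for neutrophils against LP monocytes, 7 to 7 and 10 to 10 against LP MHCIIhi and MHCIIlow macrophages, and 6 to 7, 6 to 8 and 6 to 9 against the 3 tumour populations. It gave 2 to 4, 0 to 0, 2 to 3 and 3 to 5 for tumour against LP neutrophils, monocytes, MHCIIhi and MHCIIlow macrophages. It gave 2 to 4 and 4 to 7 for macrophages against monocytes in LP and tumours, 0 to 1 in each tissue between macrophage subsets, and 0 to 2 for the difference of tumour effects.

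With replicate pools as a fixed block, 1 member was called in place of 0 between tumour MHCIIlow and MHCIIhi macrophages. Apart from the calls given with each gene this block changed none. It could not be fitted between tissues, which come from different mice. As a random block, compared in 150 instances, the pools changed no call. Depth limits Bcl2, Bbc3 and Bak1, on 8 to 36, 14 to 94 and 16 to 282 reads in neutrophils.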
